A study of Rattus norvegicus with 6 samples.

Results

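The genes described here make up the cell's defence against oxidants: superoxide dismutases, catalase, glutathione peroxidases, peroxiredoxins, the thioredoxin system, the enzymes that make and use glutathione, the targets and regulators of the transcription factor NRF2, and metal-binding proteins. They were chosen by name from a list of 42 genes. A gene counted as measured when at least 1 probe set of the array was annotated with its symbol and no other, which held for 38 of the 42 and for 47 probe sets, out of 14217 genes named in this way. The samples were 6 arrays of mesenterial adipose tissue, the fat of the folds that carry the gut's vessels, from newborn wildtype Sprague-Dawley rats. In the adequate group (3 arrays) the dams' diet held vitamin D at 1000 IU per kg, and in the deficient group (3 arrays) it held 0 IU per kg. Neither sex nor litter is labelled, and separate animals are not stated for the arrays of a group, so the p-values may measure only technical spread.

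Superoxide made by mitochondria and by oxidases is turned into hydrogen peroxide by superoxide dismutases, and catalase, glutathione peroxidases and peroxiredoxins then break the peroxide down. Glutathione and thioredoxin supply the electrons, and glutathione transferases couple glutathione to reactive lipids and foreign compounds. NRF2, the product of Nfe2l2, is held back by KEAP1 and, when released, switches on many of these genes through antioxidant response elements. In fat, where stored lipid can be oxidised, these enzymes are known to limit lipid peroxides and their aldehyde products.

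No antioxidant gene passed the test between the diets after adjustment, but most read lower on a pair of the deficient arrays. Of the 38 measured genes, 37 were bright enough to be tested, and sulfiredoxin (Srxn1) was not. Values are MAS5 signals in intensity units, which the authors scaled to a common level per array, and a log2 change is the deficient mean minus the adequate mean of log2 signals. Of the tested genes, 28 had a log2 change below 0 (75.7%, against 55.3% of all tested probe sets) and 9 above 0. Their median was -0.17, beside -0.05 over all 18625 tested probe sets. With limma and Benjamini-Hochberg adjustment, 0 of 37 passed, as did 0% of all tested probe sets, with 0.344 as their smallest adjusted p. Unadjusted, 6 of the 37 were lower at a p under 0.05 (16.2%, against 8.18% of all tested probe sets) and 0 were higher (against 6.03%). In either direction, unadjusted p was under 0.05 for 14.2% of all tested probe sets. The 6 were Gss, Gstm1, Gstt1, Nqo1, Prdx3 and Prdx5. Leaving out 1 array changed this count and also the share of all tested probe sets that were lower, though not in step where both were small. The count was 0 without adequate array 3 (3.68% of all), 1 without deficient array 2 (2.81%), 2 without adequate array 1 (2.62%), 2 without deficient array 1 (5.58%), 4 without adequate array 2 (6.97%) and 16 without deficient array 3 (20.5%). On the brightest probe set of each gene, the diet groups did not overlap for 3 genes, all lower, or 8.11% of those tested. Of all tested probe sets, 10.8% were lower without overlap, 6.55% higher and 17.4% in either direction. The share of genes without overlap was therefore not above the background.

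**Figure D1:**
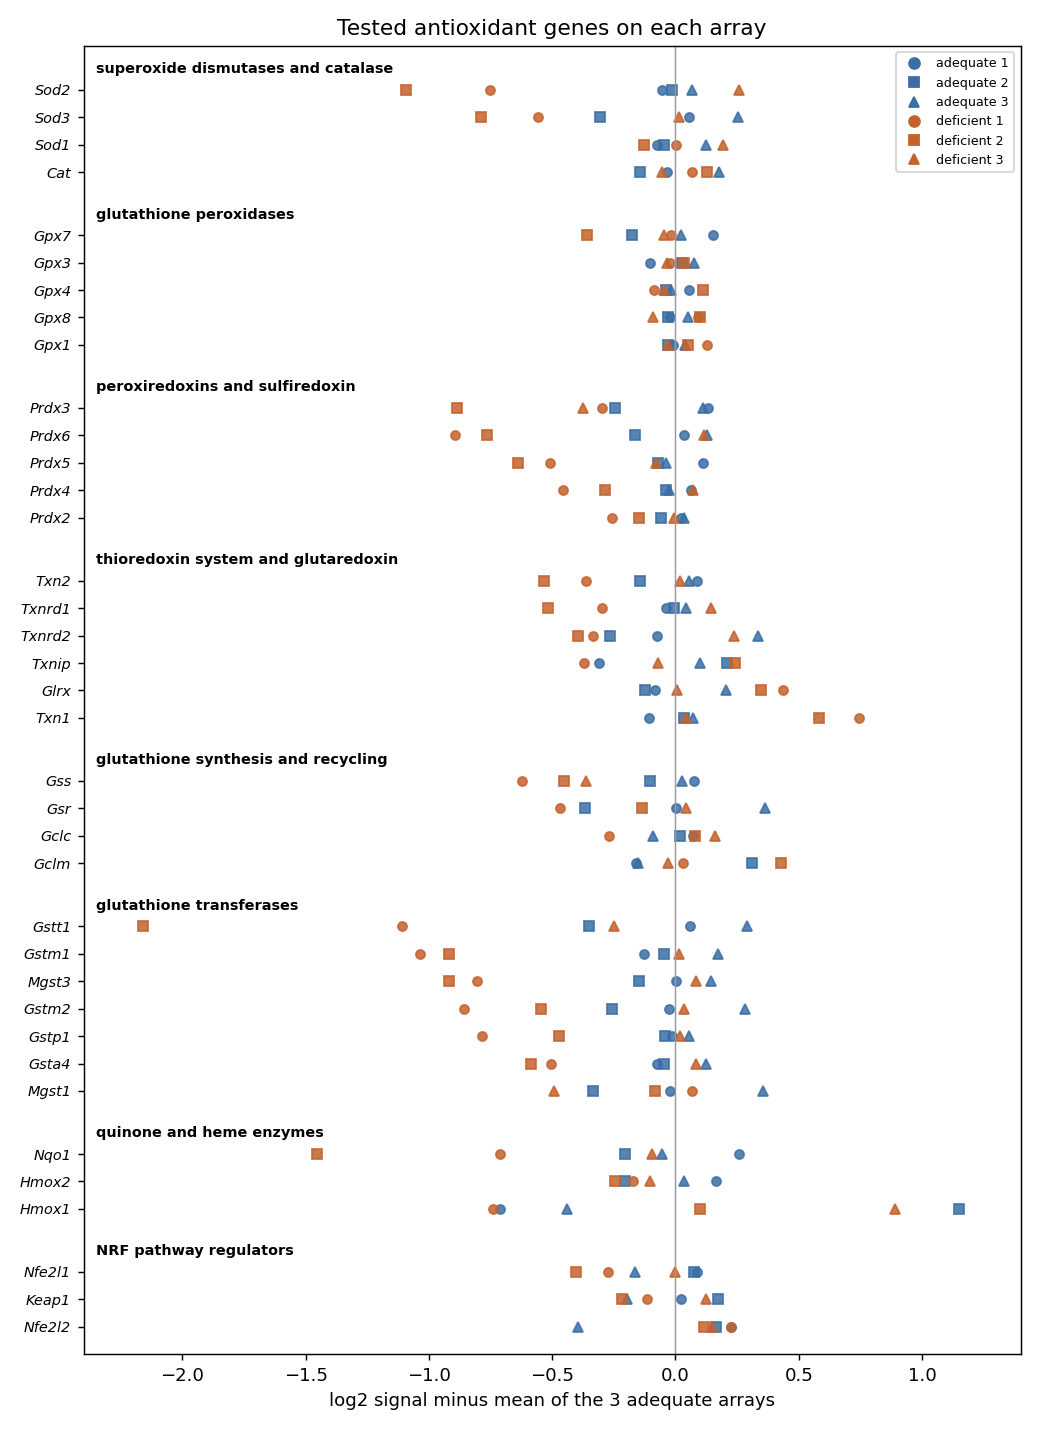
Each point is the log2 signal of 1 tested gene on 1 array minus the mean of the 3 adequate arrays (x axis, log2 units), with genes grouped by role on the y axis and colour and shape giving diet and replicate number. The points of deficient arrays 1 and 2 lie to the left for glutathione transferases and peroxiredoxins, down to Gstt1 on deficient array 2, while those of deficient array 3 mostly lie among the adequate arrays.

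The antioxidant genes divided the deficient group, with arrays 1 and 2 on the low side and array 3 mostly within the adequate range. Hybridisation controls and the actin ratio, given below, divided it in the same way. So did all tested probe sets together: on their main axis of variation (49.5% of variance), deficient arrays 1 and 2 lay at 43.1 and 46.4. The other arrays, deficient array 3 included, lay between -26.2 and -18.5. On deficient array 1, 24 of the 37 genes lay below the range of the adequate arrays (64.9%, against 39.2% of all tested probe sets), and on deficient array 2, 23 did (62.2%, against 42.9%). On deficient array 3, 7 lay below that range (18.9%, against 28.2%) and 25 within it. Above the range lay 4 genes on deficient array 1 (10.8%, against 32.1% of all tested probe sets). On deficient array 2 there were 8 (21.6%, against 30.3%) and on deficient array 3 there were 5 (13.5%, against 26.2%). Relative to the adequate mean, the median of the 37 genes was -0.30, -0.29 and 0.01 on deficient arrays 1, 2 and 3, and between -0.05 and 0.06 in the adequate group. Bacterial spike-in controls for the hybridisation were 7.06-fold and 9.94-fold of that mean on arrays 1 and 2, and 0.942-fold on array 3. Actin, read by probe sets at its 3' and 5' ends as a gauge of intact RNA, gave 3' over 5' ratios of 7.56 and 6.80 for the same pair. The ratio was 2.35 for deficient array 3, against 2.39, 4.81 and 2.58 for the adequate group. The same ratio for GAPDH separated the arrays less clearly. It was 1.71, 1.36 and 1.09 on deficient arrays 1, 2 and 3, against 1.18, 1.3 and 1.13 for the adequate group. The part of these controls in the antioxidant values was not tested. With a term for deficient arrays 1 and 2, which leaves deficient array 3 against the adequate arrays, the median of the 37 genes was 0.01 and 17 were below 0. That fit has 1 array on the deficient side, whose spread is assumed to be that of the other arrays, so it gives values only and does not show that array 3 was like the adequate arrays. Without deficient array 3, 12 of the 37 passed the adjusted threshold (32.4%, against 19.4% of all tested probe sets), 11 lower (29.7%, against 10.6%) and 1 higher (2.7%, against 8.78%). Those lower were Gsta4, Gstm1, Gstm2, Gstp1, Gstt1, Mgst3, Nqo1, Prdx4, Prdx5, Prdx6 and Sod2, and the higher gene was Txn1.

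**Figure D2:**
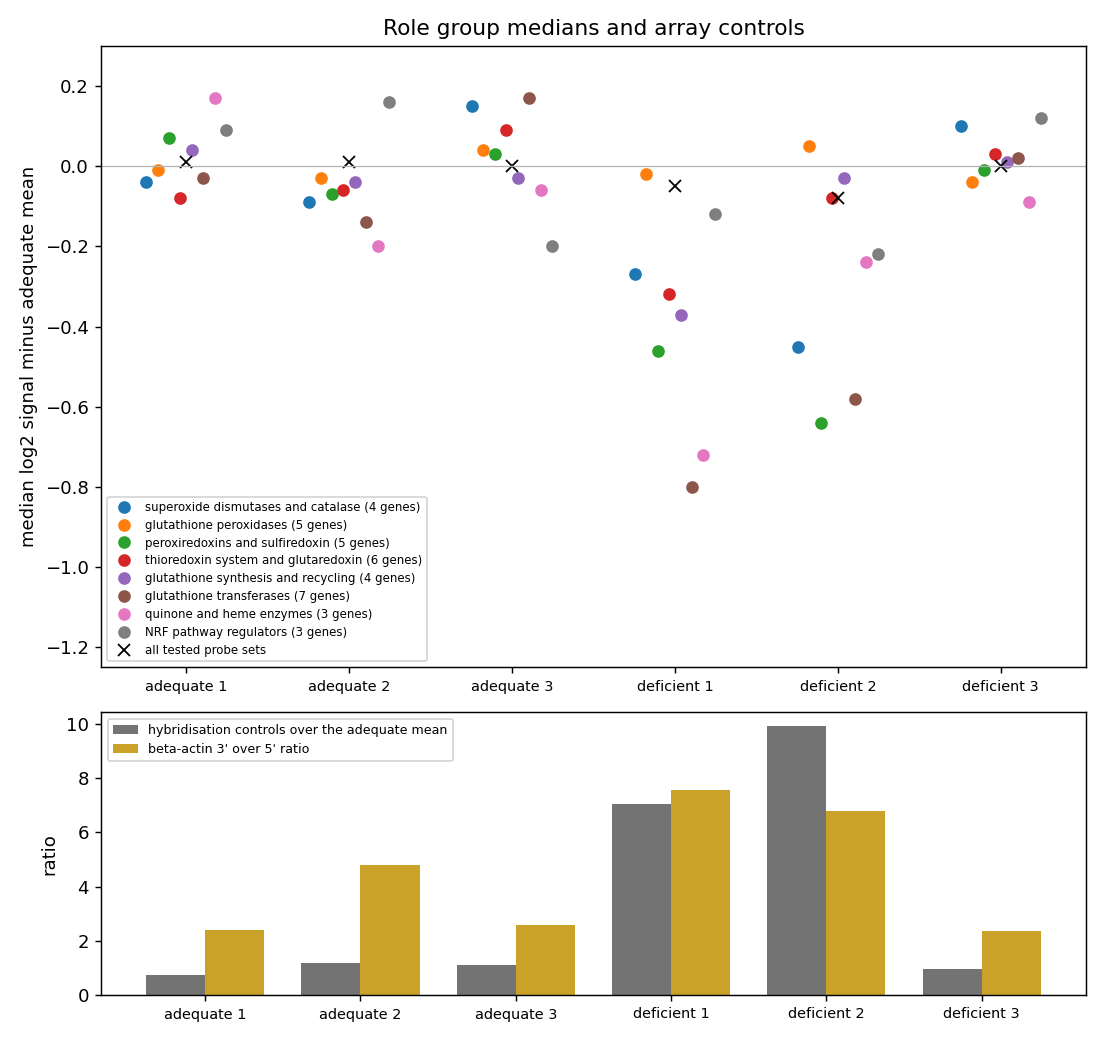
The upper panel gives, for each array (x axis), the median over each role group's tested genes of the log2 signal minus the adequate mean (y axis, log2 units), with crosses for all tested probe sets. The lower panel gives, as bars on the same arrays, the hybridisation controls over the adequate mean and the beta-actin 3' over 5' ratio. Glutathione transferases lie at -0.80 and -0.58 on deficient arrays 1 and 2, where both controls are high, and at 0.02 on deficient array 3.

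Markers of some cell types divided the arrays in the same way, and others set adequate array 3 apart. Macrophage markers, 10 of 10 tested and 9 with a log2 change below 0, had summed signals of 11084, 12295 and 14873 on deficient arrays 1, 2 and 3, against 13825 to 17017 in the adequate group. Mast cell markers (7 of 8 tested, all 7 below 0) summed to 3149, 3567 and 4748 on the deficient arrays and to 4394 to 5343 on the adequate ones, and lymphocyte markers (7 of 9 tested, all 7 below 0) to 3319, 3230 and 4856 against 4109 to 6681. Erythroid markers went the other way, with sums of 34125, 35572 and 20651, against 19928 to 21809, although 3 of the 4 tested were below 0. Intestinal epithelial markers (4 of 7 tested, all 4 below 0, median -0.86) summed to 4565 on adequate array 3 and to 883 to 1291 on the other arrays. Hepatocyte markers (7 of 10 tested, all 7 below 0, median -0.52) summed to 6557 on adequate array 3 and to 1550 to 3187 elsewhere. Adequate array 3 also had the highest adequate signals of all 7 tested glutathione transferases. This held as well for antioxidant genes outside that group, such as Sod1, Sod2, Cat, Gpx1 and Prdx6, but not for others, such as Gss and Nfe2l2. Endothelial markers (6 of 7 tested, 4 below 0) summed to 8509 to 8987 on the deficient arrays, all under the adequate sums of 9351 to 10151. The adipocyte sum was 4480, 4308 and 6739 on the deficient arrays and 5573 to 5913 on the adequate arrays. Of the 13 adipocyte markers, 7 were tested, among them Fabp4, Lpl and Cd36, and 6 were under the brightness filter, including the defining markers Adipoq, Plin1, Pparg and Lep. The part of these cells in the antioxidant values was not tested, and in bulk tissue fewer cells of a type and less RNA per cell cannot be told apart.

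Promoters were read for the antioxidant response element, through which NRF2 acts. RefSeq promoter sequences of the GRCr8 build matched 31 of the 38 genes by gene identifier. Within 250 bases before the gene start, the core letters TGACNNNGC, searched on both strands, occurred in 4 of the 31 (12.9%), and in 10.1% of all 33469 windows of that length. The 4 were Sod2, Txnrd1, Gclm and Gstp1. The AP-1 letters TGACTCA, searched in the same way, occurred in Srxn1, Glrx and Gstp1, 3 of 31 (9.68%, against 4.05% of all windows), and in Gstp1 they overlapped the response element core. Gstp1, Sod2 and Gclm are printed because all hold the core and their values differed: Gstp1 and Sod2 were low on deficient arrays 1 and 2 and Gclm was not. The windows are chr1:210769706-210769955 (minus strand), chr1:50050169-50050418 (minus strand) and chr2:213031885-213032134 (plus strand), each written 5′ to 3′ up to the base before the gene start, with the matched letters in capitals. In Sod2 and Gclm the match lies on the opposite strand, so the capitals show its reverse complement.
Gstp1: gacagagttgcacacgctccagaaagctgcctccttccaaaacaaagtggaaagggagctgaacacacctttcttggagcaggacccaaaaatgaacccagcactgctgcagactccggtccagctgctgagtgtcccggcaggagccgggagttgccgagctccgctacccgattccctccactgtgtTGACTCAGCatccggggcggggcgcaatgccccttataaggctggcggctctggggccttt
Sod2: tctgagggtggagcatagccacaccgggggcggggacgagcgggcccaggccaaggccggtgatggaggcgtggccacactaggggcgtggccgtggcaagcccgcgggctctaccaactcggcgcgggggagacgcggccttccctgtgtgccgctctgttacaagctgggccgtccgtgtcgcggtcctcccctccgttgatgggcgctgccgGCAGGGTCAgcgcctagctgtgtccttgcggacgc
Gclm: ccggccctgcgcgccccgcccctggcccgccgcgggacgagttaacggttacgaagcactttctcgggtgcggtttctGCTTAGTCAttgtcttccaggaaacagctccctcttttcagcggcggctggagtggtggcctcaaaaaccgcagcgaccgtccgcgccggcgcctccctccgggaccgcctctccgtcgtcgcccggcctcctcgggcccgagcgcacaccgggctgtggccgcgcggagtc
The match begins 61 bases before the start in Gstp1, 35 in Sod2 and 172 in Gclm. Among the 30 tested genes with a window, the median log2 change was -0.32 for the 4 with the core, of which 3 were below 0, and -0.17 for the 26 without it, of which 20 were below 0. A match describes letters, and binding was not measured.

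Of the superoxide dismutases, the mitochondrial and extracellular forms read lower on deficient arrays 1 and 2. The cytosolic form lay below the adequate arrays only on deficient array 2, by a small margin. Sod2, the manganese enzyme of mitochondria, had signals of 1555, 1599 and 1685 on the adequate arrays against 958, 753 and 1926 on the deficient arrays. Deficient arrays 1 and 2 lay below every adequate array and deficient array 3 lay above them, so the groups overlapped. Its log2 change was -0.53 ± 0.29 (SE) with an adjusted p of 0.392, and 0.26 on deficient array 3 alone. It was -0.25 without deficient array 2 and -0.93 without deficient array 3, where its adjusted p was 0.00371. Sod3, the secreted enzyme bound to matrix, read 363, 285 and 418 on the adequate arrays against 239, 204 and 354 on the deficient arrays, a log2 change of -0.44 ± 0.25 (SE). Sod1, the cytosolic copper and zinc enzyme, read 5592, 5713 and 6411 against 5914, 5399 and 6753. The Sod1 values of the groups were interleaved, with a log2 change of 0.02 and a 95% interval of -0.33 to 0.38 (-0.12 after quantile normalization). Catalase (Cat), the peroxisomal enzyme that splits hydrogen peroxide, read 2301, 2138 and 2663 against 2477, 2580 and 2276. Its log2 change was 0.05, with a 95% interval of -0.29 to 0.39.

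Glutathione peroxidases, selenium enzymes in the case of Gpx1, Gpx3 and Gpx4, had log2 changes between -0.15 and 0.05 in all 5 tested genes. Gpx1, the abundant cytosolic form, had 7542, 7414 and 7814 on the adequate arrays against 8327, 7860 and 7409 on the deficient arrays. Its log2 change was 0.05, with a 95% interval of -0.28 to 0.38, and -0.18 after quantile normalization. Gpx4, which reduces lipid peroxides in membranes, had 5032, 4754 and 4815 against 4571, 5244 and 4720, a change of -0.01 with an interval of -0.33 to 0.31. Gpx3, the secreted plasma form, had 386, 421 and 437 against 407, 425 and 403, a change of -0.01 with an interval of -0.39 to 0.37. In 0 of these 3 genes were deficient arrays 1 and 2 both below the adequate arrays. Gpx7 and Gpx8, relatives in the endoplasmic reticulum, had changes of -0.15 and 0.03, and Gpx7 had the smallest unadjusted p of the group, 0.395. The Gpx7 signals were 1863, 1483 and 1701 against 1649, 1305 and 1615, with deficient array 2 the lowest. The group's median on the single arrays stayed between -0.04 and 0.05, and the direction of its members turned with scaling: 3 of 5 were below 0 as deposited, 4 after quantile normalization and 1 after median centring.

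Peroxiredoxins, thiol enzymes that reduce peroxides, were below 0 in all 5 tested genes (against 55.3% of all tested probe sets). Their median was -0.41, and all 5 were below 0 also after quantile normalization and after median centring. With the term for deficient arrays 1 and 2 the median was -0.01 and Prdx4 and Prdx6 were above 0, and a covariate for the hybridisation controls gave a median of -0.02. Prdx3, the mitochondrial form, read 2407, 1850 and 2376 on the adequate arrays against 1786, 1184 and 1687 on the deficient arrays. Every deficient array lay below every adequate array. The log2 means were 11.10 ± 0.21 and 10.58 ± 0.32 (SD, n = 3 each), a fold of 0.696, with an unadjusted p of 0.0221 and an adjusted p of 0.344 by limma. On deficient array 3 alone the log2 change of Prdx3 was -0.38, with a 95% interval of -0.92 to 0.16, and without deficient array 2 it was -0.34. Prdx5, found in mitochondria, peroxisomes and cytosol, read 2079, 1829 and 1874 against 1352, 1233 and 1815. These groups also did not overlap, but deficient array 3 lay only just under the lowest adequate array, and its change alone was -0.08. Prdx5 had a log2 change of -0.41 ± 0.18 (SE) and an adjusted p of 0.344.

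The other peroxiredoxins overlapped between the groups. Prdx6, which also acts on oxidised phospholipids, read 2001, 1751 and 2132 on the adequate arrays against 1053, 1155 and 2125 on the deficient arrays, so deficient arrays 1 and 2 were low and deficient array 3 was near the highest adequate array. Its log2 change was -0.51 ± 0.25 (SE). Prdx4, of the endoplasmic reticulum, had a change of -0.22 and the cytosolic Prdx2 one of -0.14, and for both the only deficient array within the adequate range or above it was array 3. Prdx1 is annotated only on probe sets that carry several symbols and was not analysed here. Srxn1, the enzyme that repairs overoxidised peroxiredoxins, had 3 probe sets, all under the brightness filter with signals of at most 77.2.

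**Figure D3:**
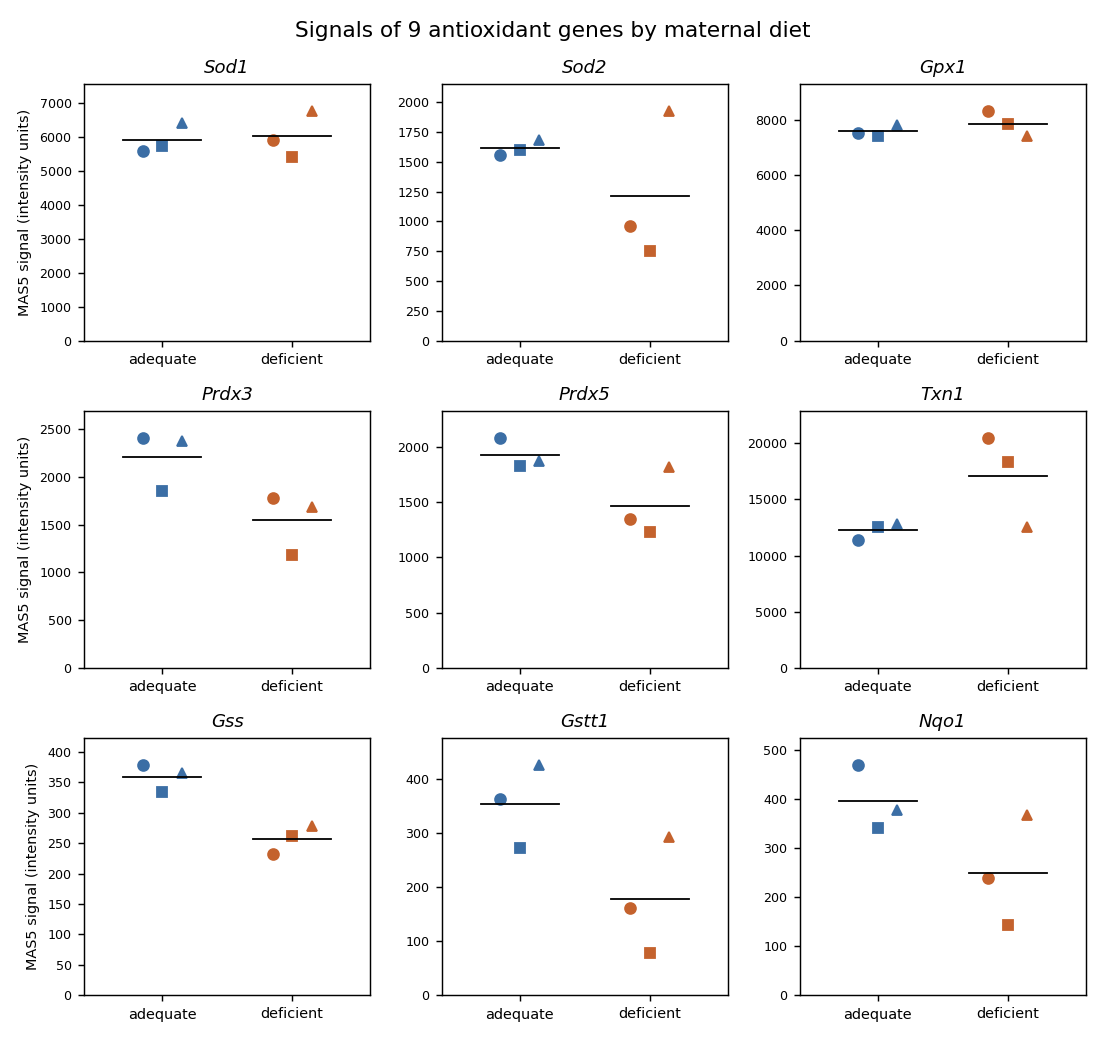
MAS5 signals in intensity units (y axis, from 0) of 9 antioxidant genes on the 3 adequate and 3 deficient arrays (x axis), with shapes for replicate numbers 1 (circle), 2 (square) and 3 (triangle) and a line at each group's mean signal. Prdx3, Prdx5 and Gss show no overlap between the diets, Sod1 and Gpx1 are level, and Sod2, Txn1, Gstt1 and Nqo1 differ from the adequate arrays on deficient arrays 1 and 2.

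In the thioredoxin system the cytosolic electron carrier was higher, and the mitochondrial carrier lower, on deficient arrays 1 and 2. Txn1, cytosolic thioredoxin, read 11366, 12540 and 12820 on the adequate arrays against 20445, 18366 and 12572 on the deficient arrays. Deficient array 3 lay within the adequate range and the other deficient arrays well above it. The log2 change of Txn1 was 0.46 ± 0.21 (SE), a fold of 1.37, with an adjusted p of 0.353. It was 0.47 after median centring and 0.03 after quantile normalization. Txn2, mitochondrial thioredoxin, read 1395, 1189 and 1369 against 1021, 908 and 1328, a log2 change of -0.29 ± 0.18 (SE). Deficient arrays 1 and 2 were below all adequate arrays, and deficient array 3 was among them.

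Thioredoxin reductases pass electrons from NADPH to thioredoxin. Txnrd1, the cytosolic one, read 1533, 1564 and 1617 on the adequate arrays against 1277, 1095 and 1733 on the deficient arrays. Its log2 change was -0.23 ± 0.18 (SE), and its other tested probe set gave -0.28. The mitochondrial Txnrd2 had a change of -0.16 ± 0.27 (SE). Txnip, which binds and inhibits thioredoxin and answers to glucose, varied within both groups: it read 8617, 12294 and 11464 against 8221, 12553 and 10187, a log2 change of -0.07 with a 95% interval of -0.54 to 0.40, and -0.36 after quantile normalization. Glrx, glutaredoxin, had 2 tested probe sets of opposite direction, 0.26 ± 0.17 and -0.45 ± 0.32 (SE), so no direction is given for it.

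Among the enzymes of glutathione synthesis, the gene of the last step had lower values on all 3 deficient arrays without passing the adjusted test, and those of the first step were interleaved between the diets. No test compared the steps with each other. Gss, glutathione synthetase, which adds glycine in the last step, read 378, 334 and 365 on the adequate arrays against 232, 262 and 278 on the deficient arrays. All 3 deficient arrays were lower than all 3 adequate arrays, deficient array 3 included. The log2 change was -0.48 ± 0.19 (SE, n = 3 each), a fold of 0.716, with an unadjusted p of 0.0279 and an adjusted p of 0.344. On deficient array 3 alone the log2 change was -0.36, with a 95% interval of -0.90 to 0.17. Over 18 alternative settings Gss stayed between -0.54 and -0.36 and passed the adjusted threshold in 0 of them.

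The first, rate-limiting step joins glutamate and cysteine. Its catalytic subunit, Gclc, read 291, 282 and 261 against 230, 295 and 312, a log2 change of -0.01 with a 95% interval of -0.46 to 0.45. A further Gclc probe set was under the brightness filter. The modifier subunit, Gclm, read 450, 622 and 453 against 512, 675 and 492, a change of 0.14 with an interval of -0.31 to 0.60. Gsr, which returns oxidised glutathione to its reduced form, read 149, 115 and 191 against 108, 135 and 153, a change of -0.19 ± 0.27 (SE). In Gclc, Gclm and Gsr the groups were interleaved.

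All 7 tested glutathione transferases had changes below 0 (against 55.3% of all tested probe sets), with a median of -0.46. All 7 were below 0 also after quantile normalization and after median centring. With the term for deficient arrays 1 and 2, 5 of the 7 were above 0 and the median was 0.02. A covariate for the hybridisation controls gave 2 above 0 and a median of -0.04. Without adequate array 3, Mgst1 was above 0, at 0.01. Gstt1, of the theta class, read 362, 272 and 425 on the adequate arrays against 161, 77.6 and 293 on the deficient arrays. Deficient array 3 fell within the adequate range and deficient arrays 1 and 2 below it. Its log2 change was -1.17 ± 0.41 (SE), a fold of 0.444, with an adjusted p of 0.344, the most negative change among the 37 genes. It was -0.25 on deficient array 3 alone, -0.68 without deficient array 2 and -1.63 without deficient array 3.

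The mu class repeated the division of the arrays. Gstm1 read 757, 798 and 930 on the adequate arrays against 401, 437 and 833 on the deficient arrays, with a log2 change of -0.65 ± 0.26 (SE), an unadjusted p of 0.0323 and an adjusted p of 0.344. Gstm2 read 968, 826 and 1198 against 545, 674 and 1011. In both genes deficient array 3 lay inside the adequate range and the other deficient arrays below it. Mu-class genes are close relatives, and whether their probe sets share signal was not tested. Gstp1, of the pi class, read 3926, 3835 and 4135 against 2300, 2852 and 4020, a log2 change of -0.41 ± 0.20 (SE). Its promoter holds the response element core, as do those of Sod2, Txnrd1 and Gclm, and the part of that element in these values was not tested.

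The remaining tested transferases were Gsta4, Mgst3 and Mgst1. Gsta4, which couples glutathione to the lipid aldehyde hydroxynonenal, read 931, 948 and 1065 against 691, 654 and 1041, a log2 change of -0.33 ± 0.20 (SE). Mgst3, a microsomal form, read 1656, 1493 and 1816 against 944, 874 and 1750, a change of -0.55 ± 0.25 (SE). Mgst1, another microsomal form, did not follow that order of the arrays: deficient array 3 was its lowest value, at 711, with 1042 and 945 on deficient arrays 1 and 2 and 795 to 1282 on the adequate arrays.

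**Figure D4:**
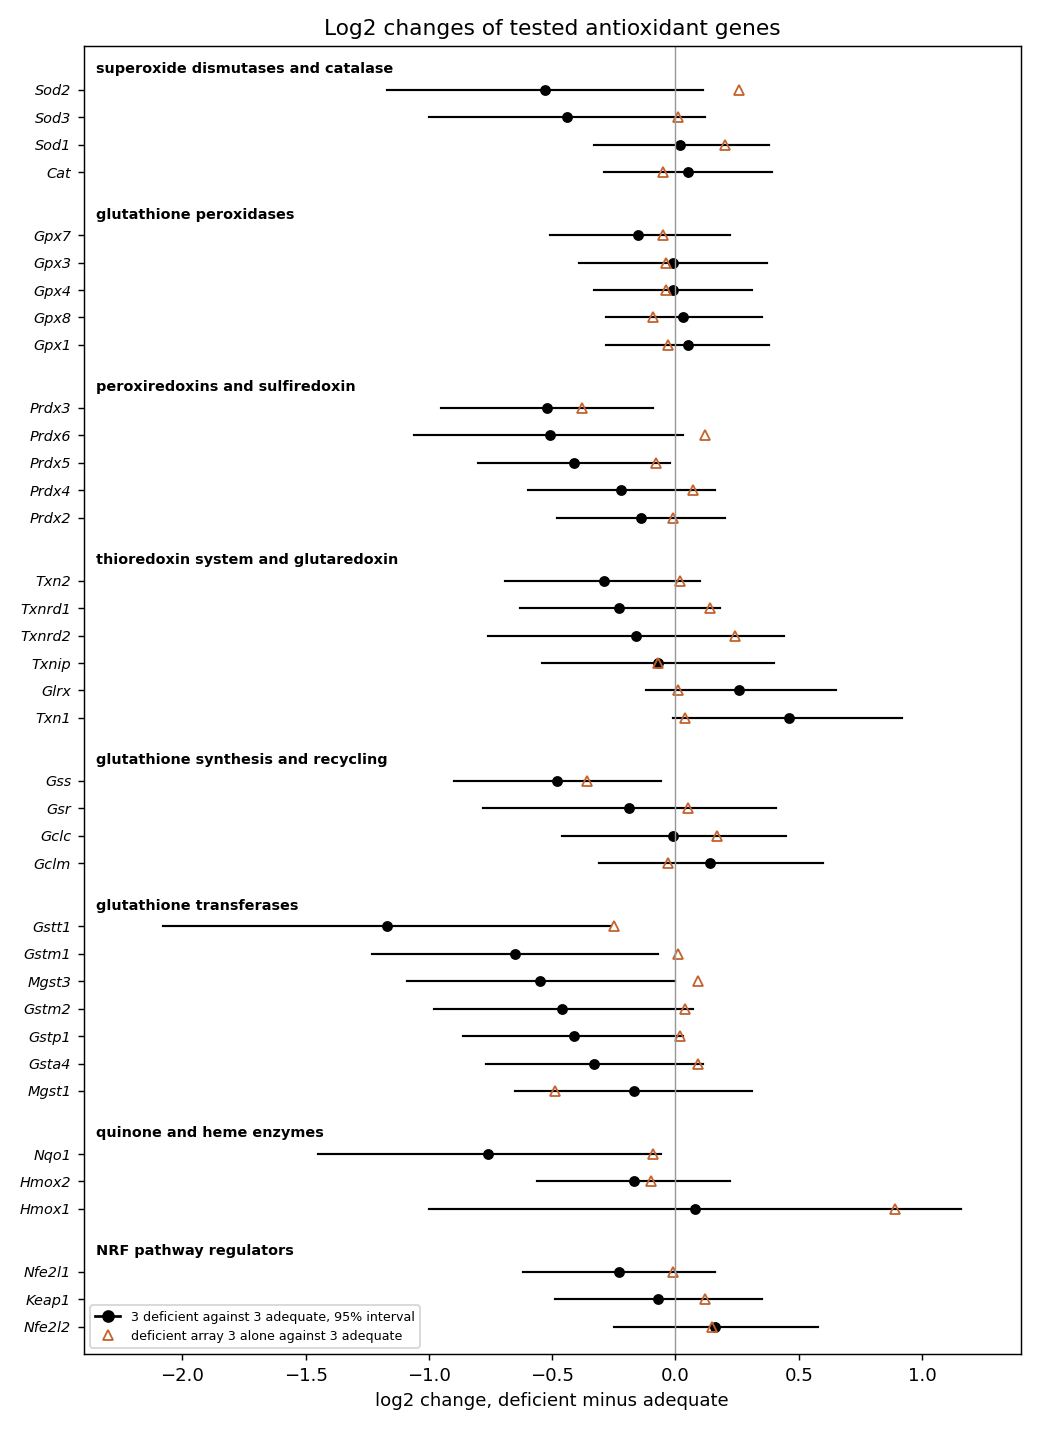
Log2 change, deficient minus adequate (x axis), of each tested antioxidant gene (y axis, grouped by role). Filled circles are the 3 deficient against the 3 adequate arrays with 95% limma intervals, and open triangles are deficient array 3 alone against the adequate arrays. The intervals of Prdx3, Prdx5, Gss, Gstt1, Gstm1 and Nqo1 lie below 0, while 17 triangles lie below 0 and 20 above.

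Of the NRF2 targets outside glutathione metabolism, Nqo1 read lower on deficient arrays 1 and 2 and Hmox1 varied widely within both diets. Nqo1, a quinone reductase, read 468, 341 and 377 on the adequate arrays against 238, 143 and 367 on the deficient arrays. Deficient array 3 was within the adequate range and the other deficient arrays below it. The log2 change was -0.76 ± 0.31 (SE), a fold of 0.592, with an unadjusted p of 0.0364 and an adjusted p of 0.344, and -0.09 on deficient array 3 alone. It was -0.41 without deficient array 2. Hmox1, the inducible enzyme that opens the heme ring, read 506, 1835 and 610 on the adequate arrays against 495, 886 and 1531 on the deficient arrays. The high arrays were adequate 2 and deficient 3, and the log2 change of 0.08 had an SE of 0.49. Hmox2, the constitutive form, had a change of -0.17 ± 0.18 (SE).

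The regulators of the pathway had log2 changes between -0.23 and 0.16. Nfe2l2, which encodes NRF2, read 1242, 1189 and 808 on the adequate arrays against 1240, 1152 and 1177 on the deficient arrays. Adequate array 3 was the low one, and the log2 change of 0.16 had a 95% interval of -0.25 to 0.58. Keap1, the adaptor that sends NRF2 to degradation, read 456, 504 and 390 against 412, 386 and 488, a change of -0.07 with an interval of -0.49 to 0.35. Nfe2l1, a related factor that drives proteasome genes, read 762, 757 and 640 against 591, 541 and 714 on its brightest probe set, a change of -0.23 ± 0.18 (SE). Its other 2 tested probe sets gave 0.42 and -0.20, so its direction was not settled. On the probe set with 0.42 the groups did not overlap, with 114, 142 and 148 on the adequate arrays against 170, 177 and 193 on the deficient arrays.

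Metal binding could be read only in part. Fth1 and Ftl1, the ferritin chains, are annotated only on probe sets that carry several symbols and were not analysed here. Metallothionein 1, listed as Mt1a, carries the symbol Mt1 in the annotation, so it fell outside the 38 genes. Its own probe set was under the brightness filter, with signals of 20.0, 12.5 and 34.9 on the adequate arrays against 57.2, 75.1 and 5.20 on the deficient arrays. Mt2A, the other common metallothionein and not among the 42, read 707, 974 and 1441 against 639, 1197 and 1347. The values ran over the same range in both groups, and the log2 change was 0.02, with a 95% interval of -0.67 to 0.71.

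Further genes of the same pathways were read from lists made beside the 42. Of 26 tested genes for other glutathione and thiol enzymes, 22 had changes below 0 (84.6%, against 55.3% of all tested probe sets), with a median of -0.20. Of these genes 0 passed the adjusted threshold, and 3 were lower at an unadjusted p under 0.05 (11.5%, near the 8.18% of all tested probe sets). Hagh, which releases glutathione in the glyoxalase pathway, read 637, 532 and 561 on the adequate arrays against 280, 313 and 503 on the deficient arrays. These groups did not overlap, and the log2 change was -0.70 ± 0.23 (SE) with an adjusted p of 0.344. Txndc17, a thioredoxin relative, had a change of -0.43 ± 0.17, and Gstk1, a transferase of mitochondria and peroxisomes, one of -0.44 ± 0.20 (SE).

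Selenoproteins and the factors that insert selenocysteine had 15 tested genes and 0 past the adjusted threshold. At an unadjusted p under 0.05, 2 were higher (13.3%, against 6.03% of all tested probe sets) and 2 lower (13.3%, against 8.18%). Selenop, the secreted selenium carrier, read 9671, 10878 and 10321 on the adequate arrays against 18216, 22196 and 10010 on the deficient arrays, a log2 change of 0.63 ± 0.27 (SE). Deficient array 3 was within the adequate range. Sephs2, which makes the selenium donor, had a change of 0.41 ± 0.18, and Selenow, a small thiol protein, one of -0.61 ± 0.27 (SE).

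Of 12 other tested NRF2 targets, 9 had changes below 0 (75%, against 55.3% of all tested probe sets) and 0 were under an unadjusted p of 0.05. Abcc1, which exports glutathione conjugates, had 0.40 ± 0.20, Blvrb, a biliverdin reductase, -0.36 ± 0.20, and Pgd, which makes NADPH, -0.31 ± 0.20 (SE). Among 7 tested partners and repressors of NRF2, Cul3, the ubiquitin ligase scaffold that works with KEAP1, read 4155, 4766 and 4570 against 6362, 7701 and 4756. Deficient array 3 was again level with the adequate arrays, and the change was 0.45 ± 0.19 (SE), the only 1 of the 7 with an unadjusted p under 0.05 (14.3%, against 6.03% of all tested probe sets higher). Sqstm1, an autophagy receptor that binds KEAP1, had -0.35 ± 0.23, and Maff, a small partner of NRF2, 0.31 ± 0.20 (SE).

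Genes that make superoxide had 6 tested members, 2 of them lower at an unadjusted p under 0.05 (33.3%, against 8.18% of all tested probe sets). Cyba, a membrane subunit of the phagocyte oxidase, read 1622, 1006 and 1354 against 728, 884 and 1069, a log2 change of -0.56 ± 0.21 (SE). Rac2, the oxidase's small GTPase in blood cells, read 2143, 1372 and 1966 against 1041, 1006 and 1758, a change of -0.55 ± 0.25 (SE). Cybb, another gene of this list, read 814, 576 and 673 against 737, 586 and 585, a change of -0.11 ± 0.19 (SE). The macrophage markers above had their lowest sums on deficient arrays 1 and 2, and their part in these values was not tested. Xdh, xanthine dehydrogenase, had 0.15 ± 0.16 (SE). For metal sensing and iron handling, 8 of 11 tested genes had changes above 0 on their brightest probe sets. The other 27.3% were below 0, against 55.3% of all tested probe sets, and 0 genes had an unadjusted p under 0.05. These counts depend on the choice of probe set. Slc40a1, Tfrc and Slc11a2 were above 0, but another tested probe set gave -0.44 for Slc40a1 (unadjusted limma p 0.0355), -0.42 for Tfrc and -0.55 for Slc11a2. Mtf1, the factor that drives metallothioneins, had 0.57 ± 0.27, with its other tested probe set at -0.37, and Ireb2, an iron sensor, 0.30 ± 0.22 (SE). Mt3, a metallothionein known mainly from brain, read 123, 120 and 169 against 55.9, 83.1 and 141. Its deficient log2 mean of 6.44 is dimmer than the cutoff of 6.46, and no fold is given.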

How the data were processed

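The authors deposited linear signal intensities of Affymetrix Rat Genome 230 2.0 arrays, and MAS5 and Affymetrix Expression Console are named, without versions, per the submitters' processing notes. The 2% trimmed mean of each array is 500, which removes any difference in total signal between arrays. Background settings were not given in the sources used here. Beside 31042 probe sets, 57 controls served for quality measures only. The signals were log2 transformed without an offset, and only probe sets with a mean at or above the 40th percentile were tested (6.46 in log2, or 88.2 in signal). That filter uses all 6 arrays, and each gene is represented by its brightest tested probe set. Deficient minus adequate was fitted with limma 3.58.1 in R 4.3.3 (moderated variances with a trend; two-sided p-values), adjusted by Benjamini-Hochberg over 18625 probe sets at 0.05; the step was also tested on simulated data. The 42 genes and the companion lists were chosen with earlier results of these data known. Values on single arrays are given for genes without overlap and with an unadjusted p under 0.05, for the smallest p in each role group, and for genes fixed by name; other genes shown in this way were chosen after their values were seen. In companion lists up to 3 genes with the smallest p were named, and Mt2A and Cybb were given besides. Alternatives were quantile normalization, median centring, 2 other filters, an offset of 50, 2 variance settings, array weights, a replicate block, each array left out, a term for deficient arrays 1 and 2, the hybridisation controls as covariate, and averaged probe sets per gene. Figures were drawn with matplotlib 3.10.9.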

Additional observations from a re-analysis of the deposited data

How the results depend on the processing

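With 3 arrays per diet the unadjusted 95% interval of a log2 change had a median half-width of 0.43 over the 37 tested genes, so smaller differences could not be resolved. Larger differences could also miss the adjusted threshold. In simulated data with 200 changed probe sets out of 18625, log2 changes of 1 passed it in 37% of cases and changes of 2 in 89%. The count past the adjusted threshold was 0 for these genes and for all probe sets under every setting except array weights (13 genes of 37, 3462 probe sets) and leaving out deficient array 3; over the arrays left out in turn the counts ran from 0 to 12 genes and from 0 to 3618 probe sets. Genes lower at an unadjusted p under 0.05 numbered 6 (8.18% of all probe sets), against 16 with array weights (21.1%), 10 with the replicate block (9.95%), 0 with the term for deficient arrays 1 and 2 (3.58%), 0 with the hybridisation covariate (2.56%), and 0 to 16 over the arrays left out (2.62% to 20.5%). Genes higher numbered 0 (6.03% of all probe sets), against 1 with median centring (6.39%), 2 with array weights (14.7%), and 0 to 2 over the arrays left out (2.01% to 14.8%). After median centring 5 genes were lower (7.26%), and after quantile normalization 8 lower (6.96%) and 0 higher (6.55%). The median of -0.17 was 0.01 with the term for deficient arrays 1 and 2, -0.01 with the hybridisation covariate, -0.32 without deficient array 3, -0.26 with array weights, and between -0.24 and -0.14 under the other settings. Settings not named here left the counts within 1.5 times. The causes were not tested.

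Some changes turned sign, among them Sod2 (-0.53), Txnrd1 (-0.23) and others both nearer 0 and farther from it. With the term for deficient arrays 1 and 2 the log2 changes were Cat -0.05, Gclc 0.17, Gclm -0.03, Gpx1 -0.03, Gsr 0.05, Keap1 0.12, Sod2 0.26 and Txnrd1 0.14. The same fit gave Gstm1 0.01 (from -0.65), Mgst3 0.09 (from -0.55), Prdx6 0.12 (from -0.51), Gstm2 0.04 (from -0.46), Sod3 0.01 (from -0.44) and Gstp1 0.02 (from -0.41). It also gave Gsta4 0.09 (from -0.33), Txn2 0.02 (from -0.29), Prdx4 0.07 (from -0.22), Txnrd2 0.24 (from -0.16) and Gpx8 -0.09 (from 0.03). With the hybridisation covariate the log2 changes were Cat -0.05, Gclc 0.14, Gclm -0.08, Gpx1 -0.02, Gsr 0.01, Keap1 0.12, Sod2 0.21 and Txnrd1 0.12. Sod3, Prdx4, Prdx6, Txn2, Txnrd2, Gsta4 and Mgst3 were also above 0 with that covariate, and Gpx8 was below 0. Quantile normalization gave Gclc 0.04, Gpx1 -0.18, Gpx3 0.07, Keap1 0.01 and Sod1 -0.12, median centring Gclc 0.01, Gpx3 0.00 and Gpx4 0.00, and array weights Gpx3 0.03, Gpx4 0.01, Sod1 -0.03 and Txnip 0.08. Over the arrays left out in turn, the changes ran from -0.02 to 0.14 for Cat, -0.09 to 0.13 for Gclc, 0.00 to 0.29 for Gclm, -0.06 to 0.03 for Gpx3, -0.07 to 0.03 for Gpx4, -0.32 to 0.66 for Hmox1, -0.17 to 0.02 for Keap1, -0.03 to 0.28 for Nfe2l2, -0.06 to 0.10 for Sod1 and -0.22 to 0.08 for Txnip.

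Replicate numbers are shared by the groups, and the labels do not state whether they mark pairs. The deviations of same-numbered arrays correlated only weakly, at 0.11, 0.15 and 0.01. Of the 6 arrays, 5 correlated best with their own number, and adequate array 3 did not. The main fit did not pair the samples, and whether the numbers mark pairs was not settled. With the replicate number as a block, 10 genes were lower at an unadjusted p under 0.05 (9.95% of all probe sets), against 6 without it (8.18%). With the block 0 genes passed the adjusted threshold.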
